A study of Mus musculus with 32 samples.

Results

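Normal growth of the mouse kidney between 4 and 7 weeks of age was described from whole kidney of wild-type mice of strain 129. The comparison set the 8 male Col4a3+/+ mice sampled at 7 weeks against the 8 male Col4a3+/+ mice sampled at 4 weeks, 16 of the 32 mice of the series. The members were chosen by genotype and age alone, from the sample titles, and every one of the 22180 genes with a usable feature was examined. The other 16 mice were male Col4a3-/- littermates (KO) of the same strain, 8 at each age. They serve to ask where the wild-type change differed, and they entered the model that estimates the spread of every gene. Loss of Col4a3, which encodes the alpha3 chain of type IV collagen, removes the mature collagen network of the glomerular basement membrane and is a model of Alport syndrome. The labels used here do not give the deleted part of the gene. Each mouse gave 1 kidney sample and 1 Affymetrix Mouse Gene 2.0 ST array, which reads each gene through a set of probes, and values are gene-level log2 signals, so that 1 unit is a doubling. Each mouse was measured at 1 age only, so age groups are separate animals.

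The interval runs from just after weaning through puberty. Mouse nephrons stop forming within days of birth, and later growth comes from longer tubules and larger cells, while proximal tubule transporters, drug-metabolising enzymes and the concentrating mechanism of the collecting duct mature. In male mice, rising testosterone enlarges the proximal tubule and switches on a set of male-type genes, many of them cytochrome P450 enzymes and organic anion carriers.

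The label kidney and the label male held in these arrays. Lrp2 (megalin, the proximal tubule scavenger receptor) had median log2 signals of 12.04 at 4 weeks and 12.71 at 7 weeks, and Slc34a1 (the proximal tubule phosphate carrier NaPi-IIa) had 12.92 and 13.24. The Y-linked genes Uty, Eif2s3y and Kdm5d had medians of 10.22, 9.08 and 8.29 at 4 weeks, whereas Xist, the transcript of the inactive X chromosome, had 4.35. Y-linked Usp9y and Zfy2 read at 3.39 and 3.34 at that age and give no check of sex. Of these 6 sex chromosome genes, Xist among them, 3 fell with age and none rose: Uty fell by 0.70 (SE 0.11), Eif2s3y by 0.35 (SE 0.09) and Kdm5d by 0.31 (SE 0.09).

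A total of 6553 genes, 29.5% of those tested, passed at a limma adjusted p below 0.05. They were divided into 3417 that were higher at 7 weeks (15.4%) and 3136 that were lower (14.1%). The balance of directions depended on the scaling. Of the genes that passed, 52.1% were higher in this fit, 57.9% with every array centred on its median and 48.1% after quantile normalization. Most changes were small: 728 of the risers and 396 of the fallers changed at least 1.5-fold, and 106 and 50 changed at least 2-fold. The median difference over all genes was -0.01 and the median standard error was 0.0987. In 2630 genes (11.9%) the 8 values at 7 weeks did not overlap the 8 values at 4 weeks, and 2600 of those passed. Between-mouse spread narrowed with age, from a median SD of 0.196 to 0.159, and 69.0% of genes had the larger SD at 4 weeks. The leading principal component of the 16 mice held 33.7% of the variance and separated the ages.

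Some properties of the features and of single mice moved with age. With the trend in promoter GC content removed, 5069 of 16990 genes passed, and with single mice left out 5876 to 6860 of 22180 did. The part of gene type, signal level and chromosome in the gene results was not tested. Of 80 small nucleolar RNA genes, 52.5% were lower at 7 weeks and 1.25% higher, and of 478 microRNA genes 18.8% were lower and 1.26% higher, against 14.1% lower and 17.6% higher among 18964 protein-coding genes. Long noncoding RNA genes were lower in 10.9% and higher in 1.61% of 1926. Among protein-coding genes, the share that rose went from 3.63% in the lowest of 5 equal bins of promoter GC content to 26.9% in the highest bin, while the share that fell went from 10.01% to 17.8%. In the lowest of 5 bins of signal 0.766% rose and 4.37% fell, and in the highest bin 31.8% rose and 26.6% fell. A per-mouse index ran from -0.12 to -0.03 in the 4-week mice and from 0.00 to 0.07 in the 7-week mice. It is the median deviation of genes in the highest promoter GC bin minus that in the lowest. The median deviation of the small nucleolar RNA genes ran from -0.25 to 0.66 in the 4-week mice. In the 7-week mice it ran from -0.34 to -0.10, so the ages overlapped in that class. The 899 genes of the X chromosome had 8.01% higher and 20.1% lower, against 15.9% and 13.8% on autosomes. Among the 156 genes that changed at least 2-fold, the 4-week mouse farthest from the 7-week values was mouse 1 in 43, mouse 2 in 37, mouse 5 in 25 and mouse 6 in 24. Any array run or scan batch that followed age cannot be told apart from it, because no such record entered the comparison.

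**Figure D1:**
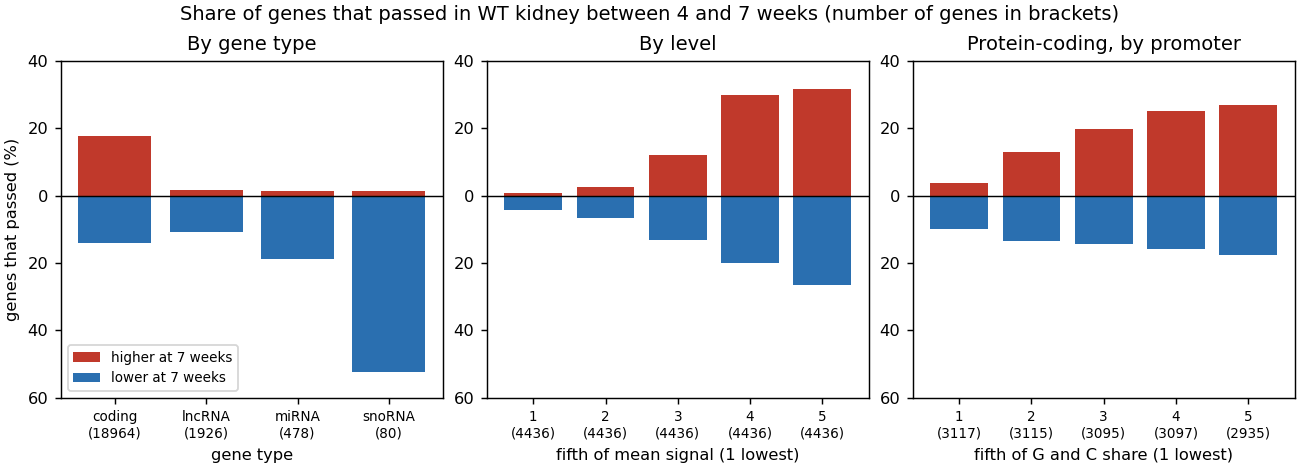
Percentage of genes that passed higher (bars above 0) or lower (bars below 0) at 7 weeks than at 4 weeks in WT kidney (y axis), by gene type, by 5 bins of mean signal and, for protein-coding genes, by 5 bins of the G and C share of the promoter (x axes). The bar for small nucleolar RNA genes reaches 52.5% lower, and the share that rose climbs from 3.63% to 26.9% over the bins of the G and C share.

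Genes of cell division fell more often than they rose. Of 39 measured genes of G2 phase and mitosis, 28 fell and none rose, with a median difference of -0.58. For the wild-type counts of each list below, the shares over all genes are 15.4% higher and 14.1% lower. The wild-type median of all genes is -0.01. Of 32 genes of the G1/S transition and DNA replication, 15 fell and 3 rose, with a median of -0.23. Because bulk tissue was measured, fewer dividing cells and less of a transcript per cell cannot be told apart, here or in any result that follows.

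The promoters of these genes are shown because so many of the genes fell and because 2 short elements are known from late cell cycle promoters. The CCAAT box was searched by its own letters. The cell cycle homology region was searched as TTTGAA, and also in a variant form that reads TTCGAA. RefSeq windows of 300 bases, 250 before to 50 after the gene start on build GRCm38.p6, were available for 32 of the 39 G2/M genes. Both strands were searched, so that a match may stand in the reverse complement, and matches of the elements may overlap. The 4 genes are those of the list with the smallest p, and capitals mark every match. The windows are chr6:66534971-66535270 on the plus strand for Mad2l1, chr10:69352863-69353162 on the minus strand for Cdk1, chr19:37376132-37376431 on the plus strand for Kif11 and chr9:70421505-70421804 on the minus strand for Ccnb2.
Mad2l1: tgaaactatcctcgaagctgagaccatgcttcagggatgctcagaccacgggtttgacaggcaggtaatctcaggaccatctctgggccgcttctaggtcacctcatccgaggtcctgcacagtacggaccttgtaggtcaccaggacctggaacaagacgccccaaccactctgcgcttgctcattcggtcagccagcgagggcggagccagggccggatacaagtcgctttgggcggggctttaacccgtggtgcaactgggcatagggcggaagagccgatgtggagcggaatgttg
Cdk1: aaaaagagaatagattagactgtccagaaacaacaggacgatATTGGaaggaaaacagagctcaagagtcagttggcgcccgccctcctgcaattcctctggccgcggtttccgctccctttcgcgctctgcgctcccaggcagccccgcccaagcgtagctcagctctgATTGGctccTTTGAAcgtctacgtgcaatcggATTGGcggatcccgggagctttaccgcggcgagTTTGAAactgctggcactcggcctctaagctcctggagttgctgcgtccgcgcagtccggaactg
Kif11: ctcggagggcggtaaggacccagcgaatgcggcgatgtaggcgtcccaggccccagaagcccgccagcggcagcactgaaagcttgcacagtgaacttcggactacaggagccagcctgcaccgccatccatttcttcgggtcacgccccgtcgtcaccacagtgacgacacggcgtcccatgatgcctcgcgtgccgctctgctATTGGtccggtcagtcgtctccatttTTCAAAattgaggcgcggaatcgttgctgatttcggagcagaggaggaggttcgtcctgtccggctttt
Ccnb2: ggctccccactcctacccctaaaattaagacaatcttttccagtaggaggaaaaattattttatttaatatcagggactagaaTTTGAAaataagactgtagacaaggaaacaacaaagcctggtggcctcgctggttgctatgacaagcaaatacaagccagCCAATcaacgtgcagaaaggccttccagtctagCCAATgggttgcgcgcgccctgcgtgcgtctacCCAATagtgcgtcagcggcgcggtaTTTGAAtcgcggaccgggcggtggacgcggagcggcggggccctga
The Cdk1 and Ccnb2 windows each held 3 CCAAT boxes and 2 homology regions, the Kif11 window held 1 of each, and the Mad2l1 window held 0 of either. A gene was counted if any of its windows held a match. Of the 25 G2/M genes that fell and had a window, 80% held the homology region and 72% the CCAAT box. The shares were 21.7% and 41.1% over all 27025 genes with a window. Over all 32 G2/M genes with a window the shares were 78.1% and 68.8%, close to those of the genes that fell. The CCAAT box was in 66.7% of the 12 G1/S genes that fell and had a window, and the homology region in 8.33%. The E2F core was searched on both strands in 3 forms, of which the first reads TTCCCGC, while another form reads TTTGGCG, and the last form reads TTCGCGC. A match may overlap the other elements. The E2F core was found in 12% of the G2/M genes that fell and in 66.7% of those 12 G1/S genes, against 8.31% of all genes with a window. These are matches of letters in a window and no measurement of a factor.

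Cdk1, the kinase that drives entry into mitosis, had log2 signals with a lowest, median and highest value of 6.77, 7.64 and 8.54 at 4 weeks and of 5.39, 5.89 and 6.72 at 7 weeks. The age groups did not overlap, and the gene fell by 1.65 on the log2 scale (SE 0.23), 3.13-fold, with a limma adjusted p of 2.82e-06. Mad2l1, a spindle checkpoint protein, went from 7.83, 8.37 and 8.79 to 6.92, 7.08 and 7.63, and fell by 1.18 (SE 0.16). Kif11, the motor that separates the spindle poles, fell by 1.15 (SE 0.20), with 7 of 8 older mice below every younger mouse. Ccnb2 (cyclin B2) fell by 1.36 (SE 0.24), Ccna2 (cyclin A2) by 1.25 (SE 0.23) and the proliferation antigen gene Mki67 by 1.29 (SE 0.24). Among the 15 largest falls of genes that could be named were also Esco2, a cohesin acetyltransferase, by 1.52 (SE 0.24) and Hmmr, a spindle-associated protein, by 1.21 (SE 0.24). The kinetochore gene Knl1 fell by 1.399 (SE 0.21). Nusap1, a spindle protein, fell by 1.06 (SE 0.19). Cdc20, an activator of the anaphase-promoting complex, differed by -0.33 (SE 0.16) and did not pass. The mitotic genes therefore ran from falls of over 2-fold to genes that did not pass, with no member higher.

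Replication genes moved less evenly. Mcm6, a subunit of the replicative helicase, went from 6.29, 7.11 and 7.58 to 5.41, 5.85 and 6.49 and fell by 1.13 (SE 0.16). Pola1, the catalytic subunit of the polymerase that starts new strands, fell by 0.73 (SE 0.10), the chromatin helicase Hells by 1.15 (SE 0.17) and Tyms (thymidylate synthase) by 0.55 (SE 0.09), each with no overlap between the ages. Rrm2, the regulated subunit of ribonucleotide reductase, differed by -0.23 (SE 0.15) and did not pass. Ccnd3 (cyclin D3) went the other way and rose by 0.39 (SE 0.07) without overlap. Of 15 cell cycle inhibitors, 3 rose and 2 fell, the fallers including Rbl1 (p107, a pocket protein) by 0.40 (SE 0.09).

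**Figure D2:**
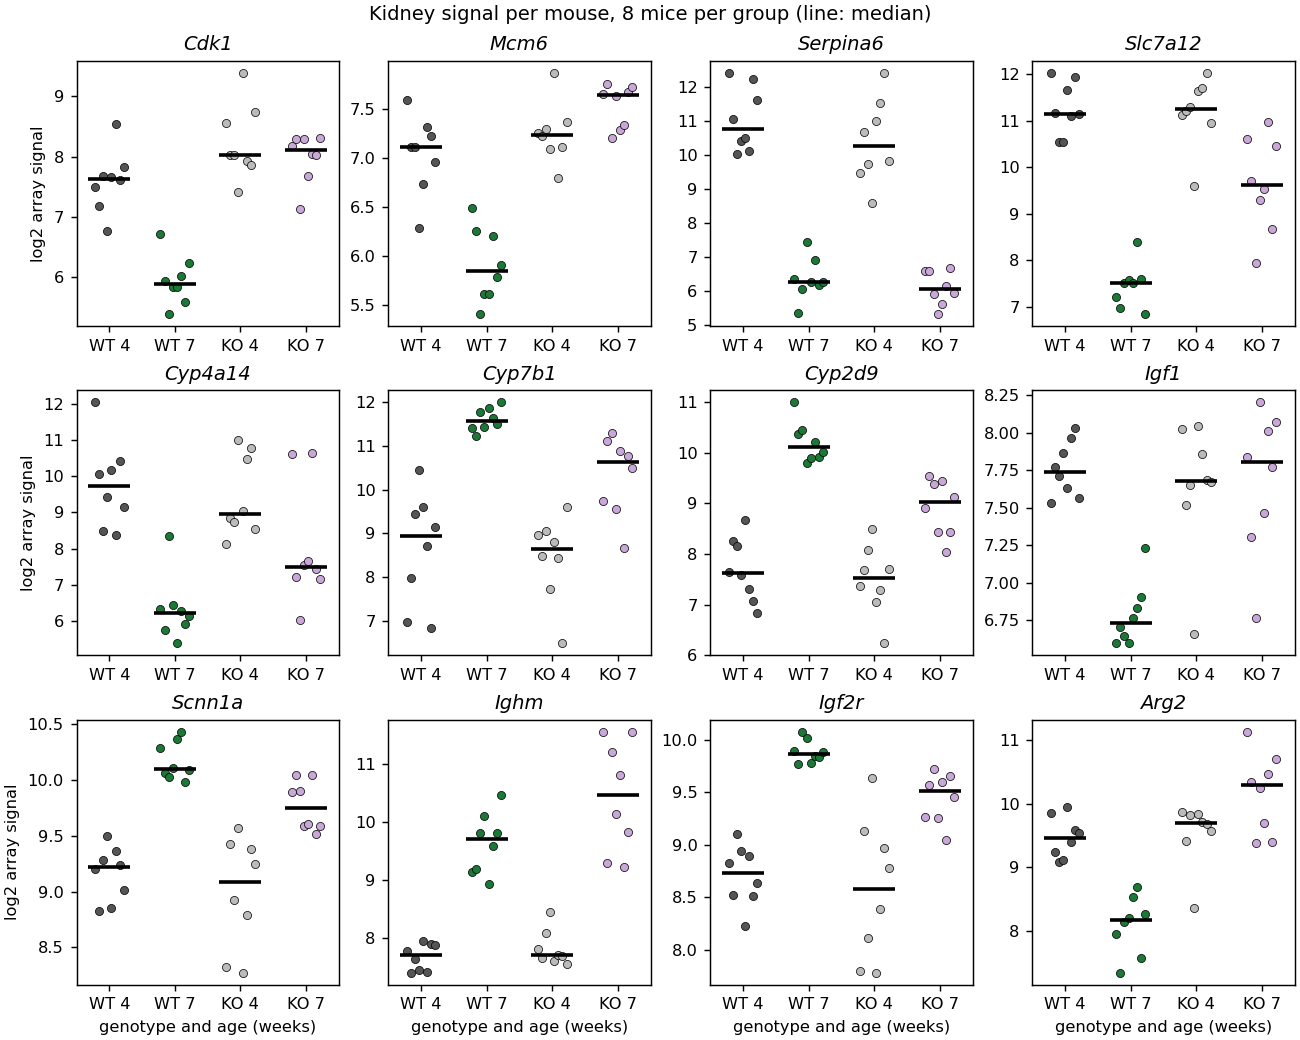
Log2 array signal (y axes) of 12 genes in each mouse, in the WT and KO groups of 8 at 4 and 7 weeks (x axes), with 1 point a mouse and a line at the group median. In the WT groups Cdk1 and Serpina6 fall without overlap of the ages, and Cyp7b1, whose 4-week mice spread from 6.83 to 10.44, rises without overlap.

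The largest fall of any named gene was that of Serpina6, which encodes corticosteroid-binding globulin, the plasma carrier of glucocorticoids. Its values were 10.04, 10.78 and 12.40 at 4 weeks and 5.34, 6.26 and 7.44 at 7 weeks. The gene fell by 4.71 (SE 0.40), 26.1-fold, with a limma adjusted p of 2.26e-09 and more than 2 log2 units between the nearest mice. Slc7a12, an amino acid carrier known to be higher in female mouse kidney, went from 10.55, 11.16 and 12.02 to 6.84, 7.51 and 8.40 and fell by 3.81 (SE 0.34), 14.1-fold. Cyp4a14, a fatty acid hydroxylase, fell by 3.44 (SE 0.58) from 8.37, 9.74 and 12.04 to 5.38, 6.20 and 8.33. The ages did not overlap in any of these 3 genes, although single mice of Cyp4a14 came close.

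Male-type genes rose more often than they fell over the same interval, although 17 of 30 did not pass. Of 30 androgen-responsive kidney genes, 11 rose and 2 fell, with a median of 0.29. Cyp7b1, an oxysterol and steroid 7alpha-hydroxylase, was spread over 6.83, 8.93 and 10.44 at 4 weeks and tightly held at 11.23, 11.57 and 11.99 at 7 weeks. It rose by 2.97 (SE 0.43), 7.82-fold, the largest rise of any named gene. Cyp2d9, a male-specific testosterone 16alpha-hydroxylase, went from 6.83, 7.62 and 8.68 to 9.80, 10.12 and 10.998 and rose by 2.52 (SE 0.27). Cyp4a12a, which makes the vasoconstrictor lipid called 20-HETE, rose by 1.69 (SE 0.32) from 4.15, 7.16 and 7.34 to 8.14, 8.33 and 8.47. Mouse 1 at 4 weeks, at 4.15, stood far below the other younger mice in that gene. Cyp2a4, a steroid 15alpha-hydroxylase, rose by 1.32 (SE 0.16), the lysosomal enzyme Gusb (beta-glucuronidase, a classical androgen target of mouse kidney) by 0.74 (SE 0.10), and Ociad2 by 0.72 (SE 0.11).

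The list of genes known to be higher in female kidney did not move as 1 group. Of 20 members 4 fell and 3 rose, with a median of 0.08. The fallers included Slc7a12, Cyp4a14 and the organic anion carrier gene Slc22a29, which fell by 1.59 (SE 0.27). Cyp2a4 and Cyp2d12, a P450 enzyme, rose, the latter by 1.503 (SE 0.32). Cyp2a4 is on the androgen list too and was counted in both lists. Slc22a27, of the carrier cluster of Slc22a29 and on the androgen list, fell by 1.26 (SE 0.24) without overlap. It went from 3.92, 4.87 and 5.86 to 3.40, 3.58 and 3.90. All 7-week values of both carriers were below 4.56, the upper edge of the lowest of 5 bins of signal. Slc22a7 (OAT2) differed by 0.74 (SE 0.36) and did not pass. Cyp2a4 and Cyp2a5, Cyp4a12a and Cyp4a12b, the Cyp2d genes and the Slc22a27 and Slc22a29 cluster are near-identical relatives whose probes may share signal, so the split of a change within each set is uncertain.

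Other genes with the largest changes came from several tissues' repertoires. Apob, the structural protein of lipoproteins, rose by 1.89 (SE 0.27), Azgp1, a secreted lipid-mobilising glycoprotein, by 1.83 (SE 0.22), and Hrg (histidine-rich glycoprotein) by 1.67 (SE 0.24). Fcamr, a receptor for IgA and IgM, rose by 1.68 (SE 0.33) and Pzp, a protease inhibitor of the alpha-2-macroglobulin family, by 1.48 (SE 0.32). Tc2n rose by 1.64 (SE 0.26) and Ct55 by 1.60 (SE 0.29). Each of these 7 genes rose without overlap between the ages. Among fallers, the orphan receptor gene Gpr52 fell by 1.21 (SE 0.14) without overlap and Psca, a surface antigen of urothelium, by 1.42 (SE 0.37) with overlap.

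Cytochrome P450 enzymes and carriers of the proximal tubule, the segment that reclaims most filtered solute, rose more often than they fell. Of 45 cytochrome P450 genes 19 rose and 5 fell (3 fell when mouse 5 at 7 weeks was left out). Cyp4f13, a fatty acid omega-hydroxylase, went from 8.96, 9.10 and 9.29 to 9.80, 9.84 and 9.95 and rose by 0.74 (SE 0.07) with a limma adjusted p of 3.17e-09. Cyp27a1, the sterol 27-hydroxylase, rose by 1.02 (SE 0.11) and Cyp4f14, a leukotriene B4 hydroxylase, by 0.88 (SE 0.12). Conjugating and antioxidant enzymes had 6 of 45 higher and 7 lower, shares near those over all genes. Gstt3, a glutathione transferase, rose by 0.87 (SE 0.08) and extracellular superoxide dismutase, Sod3, by 0.75 (SE 0.13), whereas the microsomal glutathione transferase Mgst1 fell by 0.58 (SE 0.13).

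Of 36 organic anion and cation transporters, 12 rose and 4 fell, with a median of 0.16. Slc22a6 (OAT1) and Slc22a8 (OAT3) are the basolateral carriers that bring drugs and organic acids from blood into the tubule cell. Slc22a6 went from 11.42, 11.57 and 11.86 to 12.23, 12.33 and 12.48 and rose by 0.77 (SE 0.14). Slc22a8 went from 11.16, 11.54 and 12.16 to 12.35, 12.60 and 12.72 and rose by 0.98 (SE 0.17). Neither gene overlapped between the ages, nor did Slc22a18, an imprinted carrier of the same family, which rose by 0.66 (SE 0.11). Glucose, peptide and amino acid transporters had 11 of 28 higher and 3 lower. The fructose carrier Slc2a5 (GLUT5) rose by 0.88 (SE 0.15) from 9.50, 9.85 and 10.45 to 10.71, 10.84 and 10.99. The proton-coupled amino acid carrier Slc36a1 rose by 0.78 (SE 0.14) and the peptide carrier Slc15a1 (PEPT1) by 0.66 (SE 0.10).

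Genes for apical endocytosis, the uptake of filtered protein, had 5 of 13 higher and 3 lower. Amn (amnionless, the membrane anchor of cubilin) rose by 0.87 (SE 0.11), from 8.24, 8.44 and 8.50 to 9.13, 9.28 and 9.48. Lrp2 rose by 0.58 (SE 0.14) and its adaptor Dab2 by 0.31 (SE 0.09), and in all 3 genes every older mouse was above every younger mouse. Rab11a, a GTPase of recycling endosomes, fell by 0.38 (SE 0.08).

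Phosphate and vitamin D handling had the highest share of members that rose among the 49 lists. Of 21 members 13 rose and 2 fell, with a median of 0.35. The bone hormone FGF23 acts on FGF receptors with klotho as co-receptor, lowers phosphate uptake and sets the balance between the enzymes that make and destroy active vitamin D. Fgfr4 rose by 0.98 (SE 0.16) from 8.24, 8.59 and 8.92 to 9.39, 9.52 and 9.77, and Fgfr1 rose by 0.54 (SE 0.10). Klotho itself, Kl, went from 11.77, 12.20 and 12.35 to 12.54, 12.59 and 12.66, a rise of 0.46 (SE 0.14). None of these 3 overlapped between the ages. Vdr, the vitamin D receptor, rose by 0.82 (SE 0.15) and its partner Rxra by 0.64 (SE 0.13). Cyp27b1, which makes active vitamin D, rose by 0.92 (SE 0.24), and Cyp24a1, which destroys it, by 1.34 (SE 0.44). Both enzymes were variable: Cyp24a1 spread over 7.67, 9.14 and 9.94 at 4 weeks and 8.94, 10.37 and 11.39 at 7 weeks, and the ages overlapped. Slc34a1 rose by 0.35 (SE 0.10) and its scaffold Slc9a3r1 (NHERF1) by 0.67 (SE 0.10). Slc34a2, a related phosphate carrier, differed by 0.27 (SE 0.19) and did not pass.

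Along the distal nephron the segments differed in direction. The collecting duct list, the site of vasopressin-regulated water and aldosterone-regulated sodium uptake, had 11 of 23 higher and none lower, with a median of 0.28. When mouse 1 at 4 weeks or mouse 5 or 6 at 7 weeks was left out, 1 or 2 of its genes fell. Scnn1a and Scnn1b, subunits of the epithelial sodium channel, rose by 1.01 (SE 0.15) and 0.65 (SE 0.11). Scnn1a went from 8.83, 9.22 and 9.50 to 9.98, 10.10 and 10.43. Aqp3, the basolateral water channel, rose by 0.69 (SE 0.12), and Gata2, a transcription factor of the duct, by 0.51 (SE 0.12), while Aqp4 differed by 0.44 (SE 0.23) and did not pass. Neither channel subunit nor Aqp3 overlapped between the ages.

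Loop of Henle genes leaned the other way, with 6 of 20 lower and 2 higher (1 higher when mouse 8 at 4 weeks or mouse 6 at 7 weeks was left out), and a median of -0.10. Kcnj1 (ROMK, the apical potassium channel of the thick limb) fell by 0.62 (SE 0.14) and Kcnj16 by 0.19 (SE 0.05), while Aqp1, the water channel of the proximal tubule and thin descending limb, rose by 0.45 (SE 0.10). The distal convoluted and connecting tubule list had 5 of 23 higher (3 when mouse 5 at 4 weeks was left out) and 4 lower. Those counts are not far from the shares over all genes. Wnk4, a kinase that controls the sodium chloride cotransporter, rose by 0.58 (SE 0.15) and Cnnm2, a magnesium handling protein, by 0.41 (SE 0.09). The calcium-binding protein gene S100g (calbindin-D9k) fell by 0.57 (SE 0.17) and the magnesium channel gene Trpm7 by 0.40 (SE 0.07), both without overlap.

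Intercalated cells secrete acid or base. Their list had 8 of 22 higher and 3 lower. The ammonia carriers Rhbg and Rhcg rose by 0.54 (SE 0.09) and 0.40 (SE 0.09), and Foxi1, the factor that specifies these cells, by 0.45 (SE 0.10), whereas the proton pump subunit Atp6v1g3 fell by 0.54 (SE 0.11). One of the 8 risers is Jchain, which plasma cells also express and which is described with the immunoglobulin genes. Renin-angiotensin genes had 6 of 11 higher and 1 lower. Agt, the substrate, rose by 0.49 (SE 0.14), and Ace, the converting enzyme, by 0.75 (SE 0.19) from 10.48, 10.79 and 11.26 to 11.32, 11.61 and 11.87. Rnpep, an aminopeptidase, rose by 0.59 (SE 0.09) and Mas1, the receptor for angiotensin-(1-7), by 0.51 (SE 0.11).

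Metabolic genes divided by pathway. Cholesterol synthesis had 11 of 19 genes higher and 1 lower, with a median of 0.31. Sqle (squalene epoxidase) rose by 0.72 (SE 0.10), the next enzyme Lss by 0.76 (SE 0.11), Mvd, an earlier enzyme of the mevalonate arm, by 0.67 (SE 0.11), and the late enzymes Nsdhl and Dhcr7 by 0.57 (SE 0.08) and 0.58 (SE 0.10). Lss went from 6.69, 7.03 and 7.30 to 7.57, 7.73 and 8.14. The synthase gene Hmgcs1 differed by -0.13 (SE 0.08) and did not pass, so that the pathway's members were not uniform. Fasn, the fatty acid synthase, rose by 1.55 (SE 0.23) from 6.99, 7.72 and 8.37 to 8.94, 9.15 and 9.57. Except for Sqle, the named risers did not overlap between the ages.

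Ribosomal protein and respiratory chain genes fell more often than they rose. Of 40 cytosolic ribosomal protein genes 29 fell and none rose, with a median of -0.33, and of 48 oxidative phosphorylation genes 23 fell and 5 rose, with a median of -0.22. Rps24 fell by 0.79 (SE 0.14), Rps19 by 0.67 (SE 0.11), Rpl32 by 0.64 (SE 0.11) and Rps4x by 0.51 (SE 0.09). In the respiratory chain, the complex I subunits Ndufs4 and Ndufv2 fell by 0.52 (SE 0.08) and 0.44 (SE 0.09) and the ATP synthase subunit Atp5h by 0.44 (SE 0.08). Ndufs4 went from 11.54, 11.78 and 11.96 to 11.13, 11.24 and 11.32. None of these 7 genes overlapped between the ages. Ribosomal protein genes have many processed copies in the genome that probes may also read.

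Gluconeogenesis and glycolysis had 8 of 22 higher and none lower. Ldhd, the D-lactate dehydrogenase, rose by 1.34 (SE 0.16) from 10.47, 11.27 and 11.80 to 12.37, 12.58 and 12.66. Pcx (pyruvate carboxylase) rose by 1.01 (SE 0.22), Pfkm (phosphofructokinase) by 0.51 (SE 0.09) and Pklr (pyruvate kinase) by 0.52 (SE 0.12), while G6pc (glucose-6-phosphatase) differed by 0.22 (SE 0.14) and did not pass. Fatty acid oxidation had 9 of 44 higher and 7 lower, not far from the shares over all genes. The carnitine transferases Cpt1a and Cpt2 rose by 0.58 (SE 0.13) and 0.66 (SE 0.12) and the peroxisomal oxidase Acox3 by 0.94 (SE 0.15), while the isomerase Eci1 fell by 0.41 (SE 0.09). Amino acid catabolism had 13 of 40 higher and 3 lower. Cbs (cystathionine beta-synthase) rose by 0.77 (SE 0.16) and Bckdha, of the branched-chain ketoacid dehydrogenase, by 0.59 (SE 0.11). Arg2 (mitochondrial arginase) fell by 1.39 (SE 0.23), from 9.07, 9.46 and 9.96 to 7.33, 8.17 and 8.68, without overlap.

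Growth factor genes changed in both directions. The growth hormone and IGF list had 9 of 26 higher and 4 lower (2 lower when mouse 5 or mouse 6 at 7 weeks was left out), with a median of 0.16. The ligand gene Igf1 went from 7.53, 7.74 and 8.03 to 6.59, 6.73 and 7.23 and fell by 0.98 (SE 0.17), without overlap. Igf2r, the clearance receptor for IGF2, rose by 1.18 (SE 0.18) from 8.23, 8.73 and 9.10 to 9.77, 9.86 and 10.08. The signal adaptor Irs2 rose by 1.14 (SE 0.17), the binding protein Igfbp5 by 0.87 (SE 0.17) and the growth hormone signal factor Stat5b by 0.39 (SE 0.09). Ghr, the growth hormone receptor, differed by -0.27 (SE 0.12), with a limma adjusted p of 0.0901. Imprinted growth genes had 3 of 22 higher (5 when KO mouse 4 at 4 weeks was left out) and 3 lower. Igf2r and the growth-restraining gene Phlda2 were among the risers, the latter by 0.91 (SE 0.15), and Zim1 fell by 0.88 (SE 0.22).

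**Figure D3:**
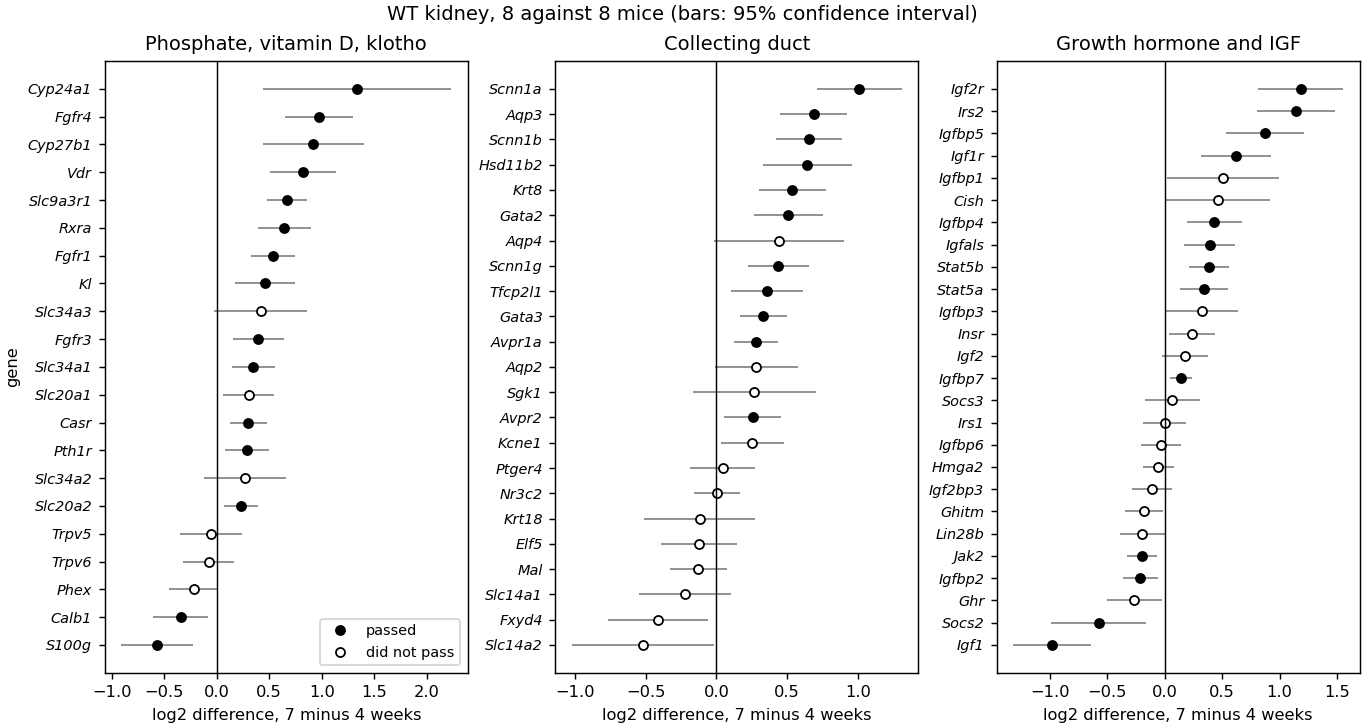
Log2 difference, 7 minus 4 weeks in WT kidney with its 95% confidence interval (x axis), of each measured gene (y axis) of the phosphate and vitamin D, collecting duct, and growth hormone and IGF lists, with filled points for genes that passed. In the collecting duct list 11 filled points lie above 0 and none below, and in the growth list Igf1 lies at -0.98 and Igf2r at 1.18.

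Kidney development genes had 14 of 44 higher and 2 lower, with a median of 0.11. Gfra1, the co-receptor for GDNF in ureteric bud branching, rose by 1.01 (SE 0.13) from 7.42, 7.70 and 8.06 to 8.54, 8.73 and 8.90. Notch2, a receptor for proximal fate, rose by 0.77 (SE 0.13), the homeobox gene Hoxc10 by 0.53 (SE 0.09) and Lhx1, required for the early nephron, by 0.56 (SE 0.12), all without overlap. Hnf4g, a nuclear receptor of the proximal tubule, fell by 0.46 (SE 0.09), and Pax2, a regulator of the nephric lineage, differed by 0.33 (SE 0.17) and did not pass.

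**Figure D4:**
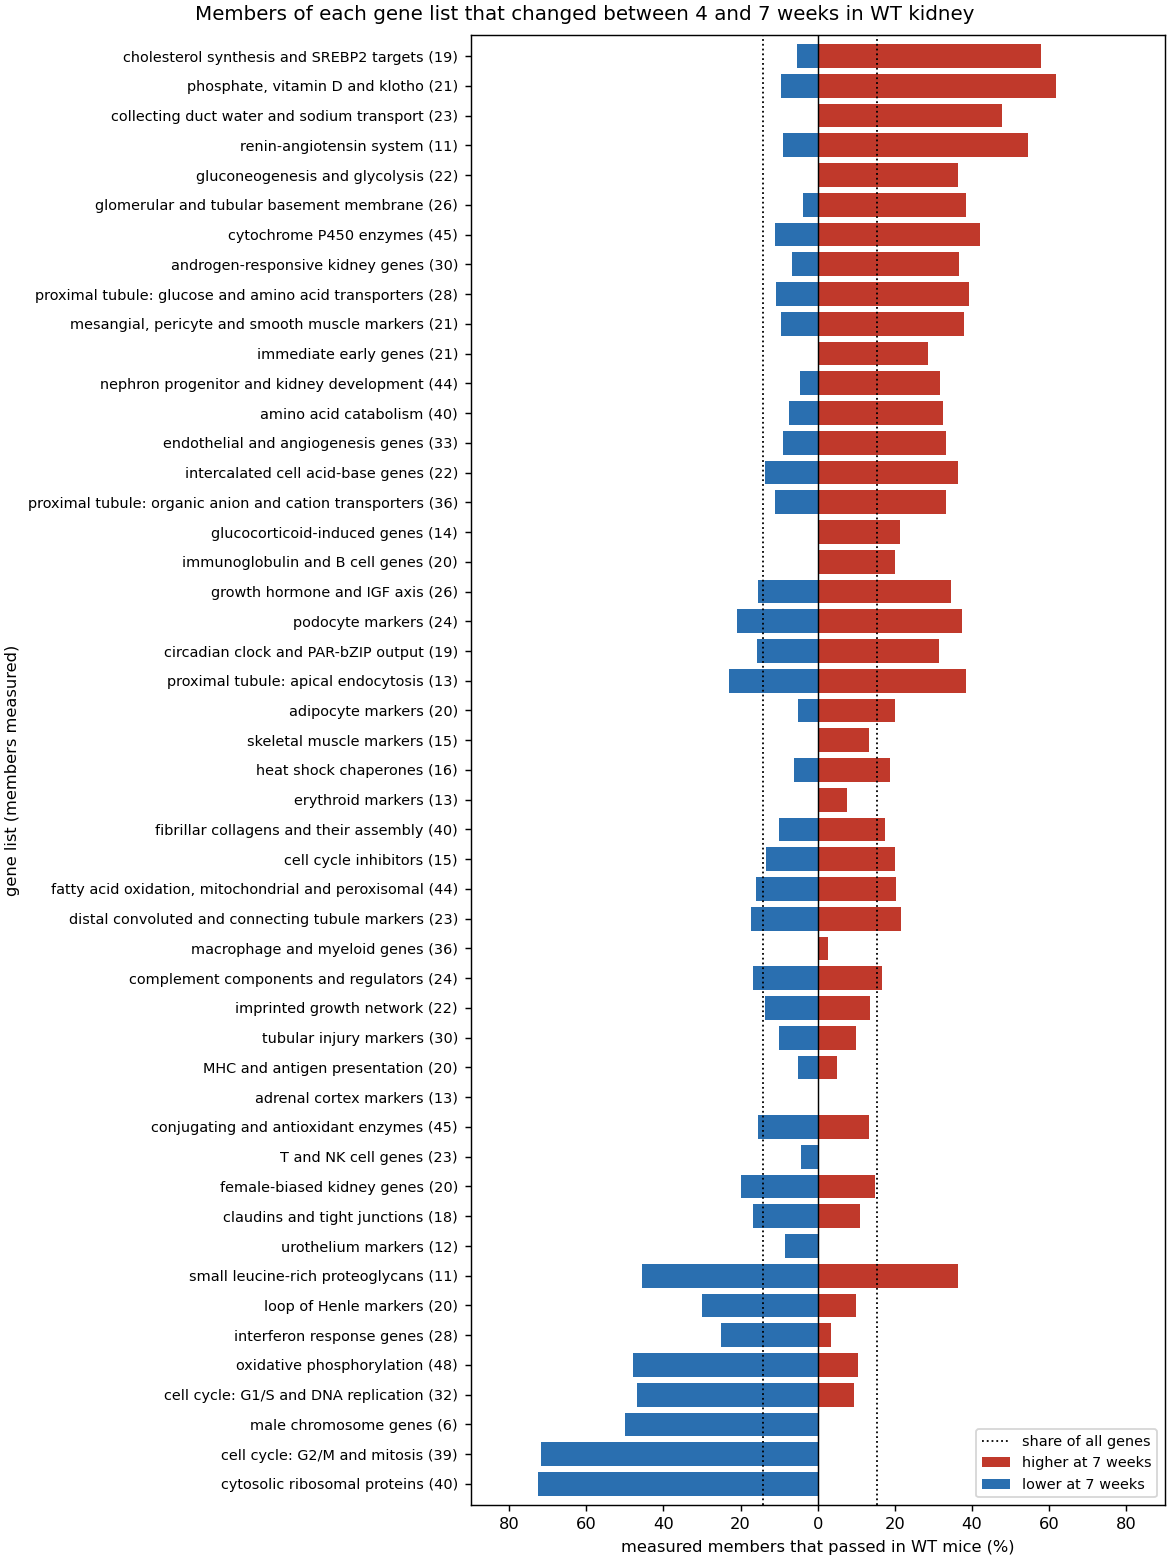
Percentage of measured genes that passed higher (bars to the right) and lower (bars to the left) at 7 weeks in WT kidney (x axis) in each of 49 gene lists (y axis), with dotted lines at the shares over all genes, 15.4% higher and 14.1% lower. The mitotic and ribosomal protein lists hold no higher gene, and the phosphate, collecting duct and cholesterol lists lean higher.

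Stroma and matrix genes were not uniform. Fibrillar collagens and their assembly factors had 7 of 40 higher and 4 lower, shares near those over all genes. The modifying enzymes Plod1 and P4ha2 rose by 0.79 (SE 0.11) and 0.62 (SE 0.11) and Pcolce, an enhancer of procollagen cleavage, by 0.52 (SE 0.09), whereas Plod2 fell by 0.48 (SE 0.08) and Col3a1, a chain of interstitial collagen, by 0.58 (SE 0.14). Small leucine-rich proteoglycans had 4 of 11 higher and 5 lower. Podn (podocan) and Prelp rose by 0.78 (SE 0.14) and 0.76 (SE 0.15), while Aspn (asporin), Ogn (osteoglycin) and Dcn (decorin) fell by 1.14 (SE 0.25), 0.81 (SE 0.20) and 0.63 (SE 0.12). The mesangial, pericyte and smooth muscle list had 8 of 21 higher and 2 lower. Cspg4 (NG2) and Acta2 (smooth muscle actin) rose by 0.87 (SE 0.13) and 0.55 (SE 0.13), Rgs5, a pericyte marker, fell by 0.75 (SE 0.13), and Anpep, an aminopeptidase that the proximal tubule brush border also holds, rose by 1.07 (SE 0.19).

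Basement membrane genes had 10 of 26 higher and 1 lower. Lamb2, the laminin beta2 chain of the mature glomerular basement membrane, went from 6.98, 7.32 and 7.71 to 7.91, 8.18 and 8.30 and rose by 0.79 (SE 0.13). Itga3, the integrin subunit that binds laminin there, rose by 0.74 (SE 0.13) and Hspg2 (perlecan) by 0.68 (SE 0.16), while Frem1 fell by 0.57 (SE 0.11). The type IV collagen chains of the mature network did not follow. Col4a3 had 8.46, 8.91 and 9.33 at 4 weeks and 8.74, 8.93 and 9.06 at 7 weeks, a difference of 0.02 (SE 0.13). Col4a4 differed by -0.03 (SE 0.11) and Col4a5 by -0.14 (SE 0.07), and none of the 3 chains passed.

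Podocyte markers had 9 of 24 higher and 5 lower. Podxl (podocalyxin, the surface sialomucin) rose by 0.76 (SE 0.15) and Actn4 (an actin crosslinker) by 0.47 (SE 0.08), while Mme (neprilysin, also a brush border enzyme) fell by 0.88 (SE 0.14) and the slit diaphragm adaptor Cd2ap by 0.35 (SE 0.08). All 4 changed without overlap. Endothelial genes had 11 of 33 higher and 3 lower. Eng (endoglin) and Flt4 (VEGF receptor 3) rose by 0.61 (SE 0.13) and 0.48 (SE 0.10), and Emcn (endomucin) fell by 0.36 (SE 0.06).

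Among immune genes, several of immunoglobulin rose and several of the interferon response fell. The heavy chain gene Ighm went from 7.39, 7.70 and 7.94 to 8.92, 9.69 and 10.47 and rose by 1.96 (SE 0.27), 3.89-fold, with no overlap. Jchain, which joins IgA and IgM into polymers, rose by 2.64 (SE 0.40) from 4.09, 5.57 and 7.01 to 6.86, 8.197 and 8.80, with 7 of 8 older mice above every younger mouse. Of 25 antigen receptor V segment genes 16 rose (64%) and 1 fell. In the immunoglobulin and B cell list 4 of 20 rose and none fell, with a median of 0.12. The share that rose there is not far from that over all genes. The plasma cell gene Mzb1 was among those risers, by 0.33 (SE 0.10). Of 36 macrophage and myeloid genes 1 rose, the receptor gene Csf1r by 0.71 (SE 0.13), and none fell. Of 23 T and NK cell genes 1 fell and none rose.

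Interferon response genes had 7 of 28 lower and 1 higher. Ifit2, Mx2 and Rsad2, which encode antiviral proteins, fell by 0.69 (SE 0.11), 0.64 (SE 0.12) and 0.62 (SE 0.11). One younger mouse stood apart in this list. Iigp1, an interferon-inducible GTPase, read 12.86 in mouse 8 at 4 weeks against a group median of 6.70, and the chemokine gene Cxcl9 read 11.48 in the same mouse against 5.64. Neither gene passed, with differences of -1.06 (SE 0.56) and -0.70 (SE 0.51). Without that mouse, 9 of 20 antigen presentation genes rose, against 1 with it (1 fell with it), 2 of the interferon genes rose and 2 of the macrophage genes rose. Complement genes had 4 of 24 higher and 4 lower: Clu (clusterin) rose by 0.63 (SE 0.13), while C7 and the complement inhibitor Cd59a fell by 0.54 (SE 0.17) and 0.48 (SE 0.09). Of 30 tubular injury markers 3 rose and 3 fell (1 fell when mouse 5 at 4 weeks or mouse 2, 3 or 7 at 7 weeks was left out). Tnfrsf12a, the TWEAK receptor, rose by 0.64 (SE 0.19) and Anxa3 (annexin A3) fell by 0.50 (SE 0.16).

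Some genes that respond to time of day and to handling changed as well. Circadian clock genes had 6 of 19 higher and 3 lower. Npas2, a partner of BMAL1, and Bhlhe40, a clock repressor, rose by 0.74 (SE 0.14) and 0.51 (SE 0.12), while Clock and Nr1d2 fell by 0.36 (SE 0.09) and 0.33 (SE 0.08). Of 21 immediate early genes 6 rose and none fell. Dusp1, a phosphatase of stress kinases, went from 9.63, 9.98 and 10.12 to 10.44, 10.75 and 11.08 and rose by 0.82 (SE 0.17). Zfp36 rose by 0.81 (SE 0.17) and Jun by 0.52 (SE 0.16), and Fos differed by 0.20 (SE 0.13) and did not pass. Of 16 heat shock chaperones 3 rose, the co-chaperone Bag3 by 0.54 (SE 0.12), and 1 fell (3 when mouse 1 at 4 weeks was left out). Of 14 glucocorticoid-induced genes 3 rose, the stress gene Ddit4 by 0.85 (SE 0.18), and 1 rose when any of mice 6 to 8 at 4 weeks or mice 1, 2 or 5 at 7 weeks was left out. The shares of heat shock and glucocorticoid-induced genes that rose are not far from the share over all genes. Time of day at collection was not given in the labels, and its part in these differences was not tested.

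Markers of tissues that can adhere to a dissected kidney were counted beside these lists. Adipocyte markers had 4 of 20 higher and 1 lower. The lipases Pnpla2 and Lipe rose by 0.99 (SE 0.13) and 0.54 (SE 0.10), Car3 (carbonic anhydrase 3) by 1.56 (SE 0.36), and Fabp4, a fatty acid-binding protein, fell by 0.67 (SE 0.15), so the markers did not move together. Adrenal cortex markers had 0 of 13 passing, urothelium markers 1 of 12 lower, skeletal muscle markers 2 of 15 higher and erythroid markers 1 of 13 higher. Claudin and tight junction genes had 2 of 18 higher and 3 lower.

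MicroRNA genes fell more often than protein-coding genes, and 4 loci that fell by more than 1 log2 unit, chosen after their values were seen, are shown by their mature 5p arms from RefSeq (build GRCm38.p6). Capitals mark the seed, bases 2 to 8 of the arm, and all 4 seeds differed.
Mirlet7c-1: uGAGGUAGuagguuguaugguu
Mir218-1: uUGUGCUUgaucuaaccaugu
Mir872: aAGGUUACuuguuaguucagg
Mir99a: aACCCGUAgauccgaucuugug
Mir218-1 lies at chr5:48223942-48224051 within Slit2, a guidance gene, and Mir872 at chr4:94665157-94665237 within Ift74, a ciliary transport gene. Mir99a (chr16:77598936-77599000) and Mirlet7c-1 (chr16:77599657-77599750) are 657 bases apart, and their host transcript Mir99ahg ends in RefSeq 40508 bases before Mir99a. Such an array does not separate a mature microRNA from its precursor or from the transcript around it.

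Mirlet7c-1 went from 6.61, 7.10 and 7.51 to 5.03, 5.75 and 6.41 and fell by 1.32 (SE 0.19), with a limma adjusted p of 4.84e-06. Mir218-1 fell by 1.17 (SE 0.17), Mir872 by 1.08 (SE 0.14) and Mir99a by 1.07 (SE 0.18). Of these 4, Mir99a alone overlapped between the ages. The annotated transcripts around them fell too: Mir99ahg by 1.09 (SE 0.15), Slit2 by 0.33 (SE 0.08) and Ift74 by 0.44 (SE 0.12). Mir99ahg fell by about as much as the 2 loci beyond its end, while Slit2 and Ift74 fell by less than the microRNA loci inside them. No test compared those sizes.

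Littermates without Col4a3 showed where the wild-type course was not shared. The test of the difference in age effect between genotypes, which uses all 32 mice, passed in 3779 genes (17.0%), 2174 with the higher change in KO and 1605 with the lower. When every array was centred on its median, 5033 passed, 1673 higher and 3360 lower, so the balance of directions depends on the scaling. Of the 6553 genes that changed in wild type, 1357 (20.7%) passed this test. Among them were 607 that fell in wild type, of which 385 had a KO difference above 0. The other 750 rose in wild type, and 386 of those had a KO difference below 0. The genotype test contains the same wild-type values that picked these genes, so these counts are no independent evidence of opposite change. In KO mice 9453 of the 22180 genes passed with age in either direction, and the KO median over all genes was -0.06. Those are the values to set beside the KO list counts and medians below. Of the 6553 wild-type genes, 4010 passed in KO in the same direction. The 2 age contrasts share no mouse. The targeted gene, Col4a3, had a median of 7.86 in KO mice at 4 weeks and 7.15 at 7 weeks, against 8.91 and 8.93 in wild type. The labels do not give the deleted part, and probes outside it do not check the genotype.

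Of the 39 mitotic genes 22 passed the genotype test, and their KO median was 0.15 against -0.58 in wild type. Mki67 differed by 0.21 with age in KO mice, and the genotypes differed by 1.499 (limma adjusted p 0.00172). Cdk1 differed by -0.25 in KO, with a genotype difference of 1.398, and Mcm6 by 0.28, with a genotype difference of 1.41. Among G1/S genes 19 of 32 passed the genotype test, with a KO median of 0.21.

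Several lists with medians above 0 in wild type had medians below 0 in KO. Amino acid catabolism had a KO median of -0.25 against 0.21 in wild type, and 27 of 40 genes passed the genotype test. Organic anion and cation transporters had 20 of 36 pass it, with a KO median of -0.17. The androgen-responsive list had 12 of 30 pass, with a KO median of -0.20, and the female-biased list 12 of 20, with -0.83. Cyp2d9 rose by 1.43 in KO against 2.52 in wild type while Slc7a12 fell by 1.55 in KO, where it fell by 3.81 in wild type, and both genotype differences passed. Serpina6 fell by 4.31 in KO, and its genotype difference of 0.40 did not pass. Arg2 rose by 0.64 in KO where it fell by 1.39 in wild type, and Igf1 differed by 0.04 where it fell by 0.98.

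Some other lists had medians of the same sign in both genotypes. The collecting duct list had a KO median of 0.49, with 17 of 23 higher and 6 passing the genotype test. The ribosomal list had -0.10, near the KO median of -0.06 over all genes, with 9 of 40 lower in KO against 29 in wild type. Of those 40 genes, 7 passed the genotype test. The phosphate and vitamin D list had a KO median of 0.29, with 10 of 21 passing the genotype test. Mirlet7c-1 fell by 1.30 in KO, Apob rose by 1.86 and Ighm by 2.63, and none of these 3 passed the genotype test. The macrophage and injury lists had medians of opposite sign, -0.06 in wild type and 1.60 in KO for macrophage genes and -0.07 and 1.44 for injury markers. Macrophage genes, of which 1 rose in wild type, had 26 of 36 higher in KO and 27 passing the genotype test, and injury markers had 29 of 30 higher in KO and 28 passing.

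By the smallest p among genes that changed in wild type, and keeping the 5 of the first 10 whose wild-type call held when any 1 mouse was left out, the sharpest genotype differences were in Dhrs9, Mybpc2, Frem1, Col3a1 and Anxa3. Dhrs9, a retinol dehydrogenase, fell by 0.43 (SE 0.13) in wild type and rose by 1.44 in KO. Frem1, a basement membrane protein, fell by 0.57 and rose by 0.90, Col3a1 fell by 0.58 and rose by 1.11, and Anxa3 fell by 0.50 and rose by 1.37. Mybpc2, a myosin-binding protein, rose in both, by 0.47 (SE 0.14) and 2.29. In 4 of these 5 the genotypes had opposite directions, which a choice by that p favours.

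**Figure D5:**
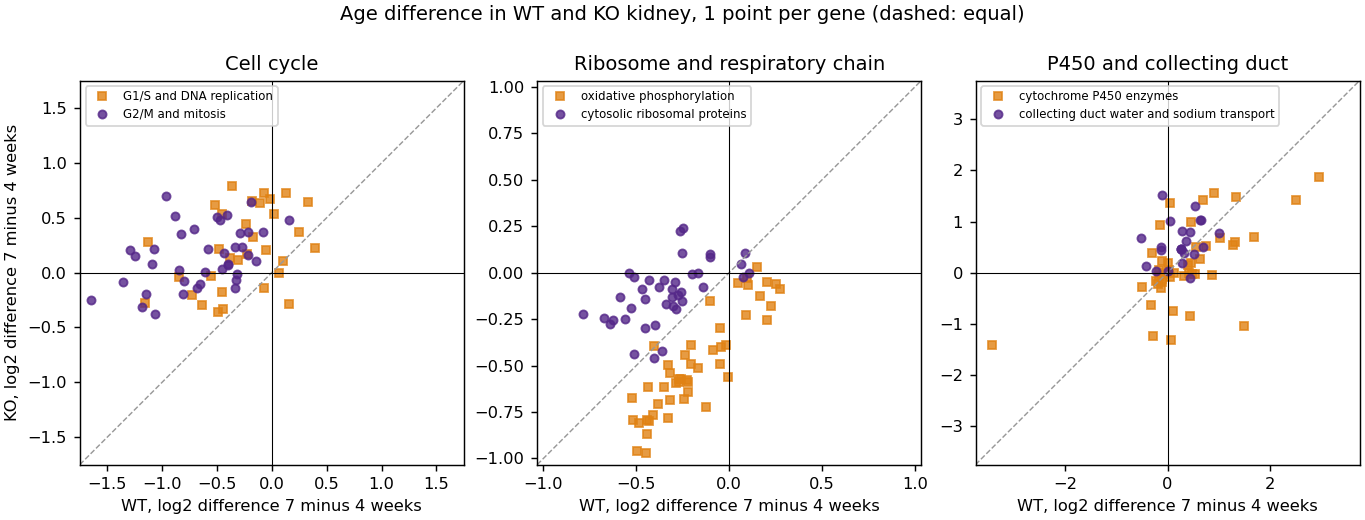
Log2 difference, 7 minus 4 weeks, in WT kidney (x axes) against KO kidney (y axes), 1 point a gene, for the members of 6 lists in 3 panels, with a dashed line of equal difference. Mitotic genes, with medians of -0.58 in WT and 0.15 in KO, lie mostly above the line, and oxidative phosphorylation genes, with medians of -0.22 and -0.55, lie mostly below it.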

How the data were processed

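Whole kidney of 32 male mice of strain 129 was profiled on 1 array each, 8 mice per genotype and age. Per the labels, RNA was stabilised in RNAlater and extracted with a miRNeasy kit, and the authors deposited gene-level log2 values after RMA in Affymetrix Expression Console, with no version stated. All columns were matched to samples, with 0 left over, and no unit was changed. Of 41345 features, 23521 named 1 symbol, and the feature with the highest mean over all mice was kept for each of 22180 genes. limma 3.58.1 in R 4.3.3 with the data.table package (1.17.8) fitted 4 group means with 28 residual degrees of freedom and no low-signal filter. A gene passed at a Benjamini-Hochberg adjusted p below 0.05 over the 22180 genes, and confidence limits are at 95%. The fit was tested on simulated data. Log2 differences are printed with standard errors, and lowest, median and highest values are over 8 mice. Counts and plots used matplotlib 3.10.9, scipy 1.17.1, pandas 2.3.3 and numpy 2.4.6 under Python 3.11.15.

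The 49 lists held 1290 genes from general knowledge of the kidney, 1159 of them measured. The members and lists were chosen with earlier results of these data known, so no list count is independent evidence. Named are up to 15 of the largest changes per direction, without predicted, small RNA, olfactory, taste and antigen receptor genes; up to 5 list members with the smallest p, up to 3 that did not pass with the largest change, and role examples; the genotype differences with the smallest p; the type IV collagen chains; and sex chromosome genes. Of the genotype differences, only genes whose wild-type call held when any 1 mouse was left out were kept. The 4 microRNA loci, Mir99ahg, Slit2, Ift74, Galns, Npc1, Psap and Gaa were chosen after their values were seen. Alternatives included other scalings, a level filter, a replicate block, array weights, a rank-sum test, a test against 1.2-fold, removal of the trend with promoter GC content and leaving out single mice. Array precision is limited by the number of mice, and no read depth applies.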

Additional observations from a re-analysis of the deposited data

Results flagged for a closer look

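The change with age differed between genotypes, by the limma test of that difference, in 77 of the named genes. Values are the log2 change with age in KO mice minus that in WT mice. For 8 cell division genes the value was above 0: 1.398 in Cdk1, 0.87 in Mad2l1, 0.96 in Kif11, 1.27 in Ccnb2, 1.499 in Mki67, 1.396 in Ccna2, 1.00 in Esco2 and 0.92 in Knl1. Replication genes did likewise, with 1.41 in Mcm6, 0.53 in Pola1, 0.88 in Hells, 0.53 in Tyms and 0.68 in Rrm2. The cell cycle inhibitor Rbl1 had 0.38. Sex-biased genes had 2.27 in Slc7a12, -1.09 in Cyp2d9, -0.71 in Cyp2a4, -2.56 in Cyp2d12 and -1.78 in Slc22a7.

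Further proximal tubule carriers had -0.52 in Slc22a18, -0.56 in Slc22a6, -0.45 in Slc15a1 and -0.63 in Slc36a1, and the endocytosis gene Amn had -0.69. Of the phosphate and vitamin D list, Kl had -0.67 and Slc34a2 had 2.38. The enzyme genes Cyp4f14 and Mgst1 had -0.91 and 0.84. Distal genes had -0.99 in S100g and -0.54 in Rhbg. In metabolism they were -0.34 in Nsdhl, -0.64 in Mvd, -0.47 in Pfkm, -0.67 in Acox3, -0.62 in Bckdha and -0.81 in Cbs, against 2.03 in Arg2, 0.49 in Rps4x and 0.56 in Rps24. Among other large changes were -1.41 in Azgp1, -1.70 in Fcamr, -1.46 in Hrg, -1.45 in Tc2n, -1.97 in Ct55, -2.74 in Car3 and -1.47 in Pzp, and 3.02 in Psca.

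Growth and development genes had -0.69 in Irs2, -0.77 in Phlda2, -0.70 in Gfra1, -0.64 in Lhx1 and 1.02 in Igf1. Matrix and glomerular genes had 1.09 in Dcn, 0.63 in Pcolce, 1.69 in Col3a1, 0.79 in Ogn, 0.52 in Itga3, 1.47 in Frem1, 0.90 in Rgs5, 1.04 in Acta2 and 0.55 in Cd2ap, and -0.54 in Podn and -0.65 in Col4a3. Immune and injury genes had 0.73 in Csf1r, 0.90 in Ifit2, 0.89 in Mx2, 2.41 in Iigp1, 2.50 in Cxcl9, 1.25 in Clu, 1.67 in C7, 1.22 in Tnfrsf12a and 1.87 in Anxa3. The remaining genes had 0.66 in Bhlhe40, 1.00 in Jun, 0.66 in Fos, 1.87 in Dhrs9 and 1.82 in Mybpc2.

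Single mice stood apart from their group in 24 of 402 tested sets of 8 values, by a gap to the next mouse that exceeded Dixon's critical value at the 95% level, and chance gives about 1 in 20 such sets. Mouse 8 at 4 weeks was high in Iigp1 (12.86) and Cxcl9 (11.48) and low in Fcamr (7.10) and Dab2 (11.16). Mouse 1 at 4 weeks was low in Cyp4a12a (4.15) and Ct55 (5.11) and high in Bhlhe40 (10.03). Mouse 2 was low in Cspg4 (6.05) and Eng (9.04). Mouse 5 was low in Cnnm2 (8.10) and Dhcr7 (6.55) and high in Rps4x (11.02), Anxa3 (8.66) and Dhrs9 (5.42). Mouse 6 was high in Cdc20 (7.32) and low in Col3a1 (7.43). At 7 weeks the values were 4.63 for Knl1 in mouse 7, 8.33 for Cyp4a14 and 12.79 for Lrp2 in mouse 3, 8.67 for Gusb in mouse 8, and 9.97 for Slc36a1 in mouse 1. They were also 6.53 for Col3a1 in mouse 6, 9.36 for Nr1d2 in mouse 5 and 4.82 for Dhrs9 in mouse 2.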

How the results depend on the processing

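The count of 6553 genes for wild-type age was 976 when a change beyond 1.2-fold was required, with 69.2% of those higher against 52.1% without that limit, and the genotype count of 3779 was 948. Leaving out each of the 32 mice in turn gave 5876 to 6860 genes for age and 3187 to 4293 for the genotype difference. In the other settings both counts were within 1.5 times the reported ones. Replicate numbers did not pair the mice: correlations of same-numbered mice ran from -0.05 to 0.21, with 2 of 8 over 0.1, and 2 mice correlated best with their own number. The fits with the number as a block passed 6473 and 3743 genes. Array centring gave 33.2% higher genotype differences, against 57.5% in the reported fit. With the trend in promoter GC content removed, added after the data were seen, 5069 of 16990 genes passed, and over members with a promoter the 98 list counts shifted by at most 2 genes. Without 1 mouse, list counts of 3 or fewer shifted by at most 2, antigen presentation aside. No direction of a named gene reversed. The 183 named genes that passed kept that call in each setting that tested them except the 1.2-fold one, where 71 lost it. Those named for the sharpest genotype differences were kept because their call held without any 1 mouse. For them that outcome was set by the choice, and the named genes do not stand for all genes that passed. The level filter left 3 of them untested and the GC fit 38. Changes near the median standard error of 0.0987 are not resolved by 8 mice per group.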

Other observations

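Lysosomal genes, in lists made after the data were seen, rose more often than they fell. Gusb, one of the hydrolases, is also on the androgen list. Of 21 measured genes for lysosomal hydrolases 16 rose and none fell, with a median of 0.49 against -0.01 over all genes, and the KO median was 0.41 with 6 of 21 passing the test between genotypes. Galns, which degrades keratan sulphate, went from 8.58, 9.08 and 9.40 (lowest, median and highest of 8 mice) at 4 weeks to 9.98, 10.11 and 10.62 at 7 weeks and rose by 1.16 (SE 0.14). Gaa (acid alpha-glucosidase, which degrades glycogen) rose by 1.19 (SE 0.19), from 7.70, 8.47 and 8.67 to 9.45, 9.56 and 9.69. Psap (prosaposin, the precursor of activators of sphingolipid breakdown), counted with the membrane proteins and cathepsins below, rose by 0.79 (SE 0.11). Every older mouse was above every younger mouse in these 3 genes.

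Of 14 genes for lysosomal membrane proteins and cathepsins 7 rose and 2 fell, with a median of 0.16. Npc1, which exports cholesterol from the lysosome, rose by 0.98 (SE 0.14) from 7.42, 7.71 and 8.01 to 8.59, 8.67 and 8.77, without overlap. Its KO difference was 1.06, and 4 of the 14 passed the test between genotypes.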
